A study of Mus musculus with 8 samples.

Results

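The thick filament of the cardiac sarcomere was followed through 10 genes, taken by symbol from the gene count tables: 3 myosin heavy chains (Myh6, Myh7 and Myh7b), 4 myosin light chains (Myl2, Myl3, Myl4 and Myl7), the myosin-binding protein Mybpc3, the myosin light chain kinase Mylk3 and the lysine methyltransferase Smyd1. All 10 were found among the 24062 genes listed in both tables, and all 10 passed the filter on low counts that left 15508 genes for testing. The libraries were made from total RNA, depleted of ribosomal RNA, of the left ventricular free wall of male C57BL/6 mice 8 to 12 weeks old. The 4 groups of 2 mice each were myocardial infarction (MI), in which the left anterior descending artery was tied off, at 1 day, sham surgery without ligation at 1 day, MI at 3 days and sham surgery at 3 days. The labels name no transgene or drug, and the infarcted samples were ischaemic tissue taken whole, so that they hold every cell type present there.

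A thick filament is a bundle of myosin molecules. Each molecule has a pair of heavy chains, whose heads are the motors that split ATP and pull on actin, and each head carries an essential and a regulatory light chain. Adult mouse ventricle runs mainly on the fast alpha heavy chain of Myh6 with the light chains of Myl3 and Myl2, whereas the slow beta chain of Myh7 is the foetal ventricular form in mice, and atrial cardiomyocytes use the light chains of Myl4 and Myl7 with Myh6. A rise of Myh7 against Myh6 is a textbook sign of the stressed rodent ventricle.

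The MI libraries of 1 day held 12662237 and 7382490 gene counts and were the shallowest, and the other 6 held 18831791 to 25041386. Levels are CPM values, counts scaled to the library size after TMM normalisation, and each group has a library A and a library B. Of the 10 cardiomyocyte reference genes (troponins, Tpm1, Actc1, Actn2, Ryr2, Pln, Atp2a2 and Ttn), none was at 0 in any library, and their summed level was 95926 and 111064 CPM in MI hearts against 169867 and 147920 CPM in sham hearts at 1 day. At 3 days it was 9612 and 9593 CPM in MI hearts against 106385 and 166822 CPM in sham hearts. Summed macrophage markers stood at 5673 and 5552 CPM in MI hearts against 999 and 514 CPM in sham hearts at 3 days, and summed fibroblast markers at 8823 and 8920 CPM against 3947 and 1866 CPM. MI library B at 1 day stood apart in that 94.1% of all listed genes had at least 1 count, against 69.5% to 81% in the other 7 libraries. Mitochondrial transcripts took 28.70% and 43.34% of transcript reads in MI hearts at 1 day, against 15.04% and 13.88% in sham hearts, and 6.51% and 4.19% in MI hearts at 3 days, against 16.56% and 15.68% in sham hearts. In bulk tissue, fewer cardiomyocytes and less RNA per cardiomyocyte cannot be told apart, and this touches every fall given here.

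The heavy chain genes are known for carrying a microRNA each within an intron, so that host and microRNA share a primary transcript. The 3 mature sequences below, from RefSeq on GRCm38.p6, lie within the bounds of their hosts and on the hosts' strand. The one of Myh6 is at chr14:54949072-54949093 and the one of Myh7 at chr14:54975710-54975731, both on the minus strand, and the one of Myh7b is at chr2:155622893-155622913 on the plus strand. Capitals mark the seed, bases 2 to 8, which pairs with target messages.
mmu-miR-208a-3p, in Myh6: aUAAGACGagcaaaaagcuugu
mmu-miR-208b-3p, in Myh7: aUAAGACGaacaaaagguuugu
mmu-miR-499-5p, in Myh7b: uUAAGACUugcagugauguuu
The seeds of the microRNAs of Myh6 and Myh7 had 7 of 7 bases in common, and the seed of miR-499-5p shared 6 of 7 bases with each. The libraries did not measure mature microRNAs, but the count tables list the hairpin genes, whose reads cannot be told apart from reads of the host's primary transcript. Mir208b had 11 and 1 counts in MI hearts against 75 and 82 counts in sham hearts at 1 day, and 2 and 1 counts in MI hearts against 56 and 246 counts in sham hearts at 3 days. Mir208a had 9 and 2 counts in MI hearts against 25 and 23 counts in sham hearts at 1 day, and 0 and 0 counts in MI hearts against 7 and 49 counts in sham hearts at 3 days. The MI libraries held fewer reads of both hairpins than the sham libraries of the same day, and Mir499 held at most 4 counts in any library.

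The promoter sequences are shown for the neighbouring heavy chain genes and for a ventricular and an atrial light chain, because their values after MI differed in size. Each is the 250 bases before the start that RefSeq gives on GRCm38.p6, read along the gene's own strand. Myh6 is at chr14:54966608-54966857, minus strand, and Myh7 at chr14:54994627-54994876, minus strand. The window of Myh6 lies inside the bounds of the gene, 54941921 to 54968017, so the start used for it is not their outer end. Myl3 is at chr9:110763428-110763677, plus strand, and Myl7 at chr11:5898783-5899032, minus strand. Capitals mark matches on either strand to CATTCC, the core of the M-CAT element that TEAD factors bind, and to AGATAA or AGATAG, forms of the site that GATA factors bind, and on the gene's strand to TATAAA. The matches shown do not overlap one another.
Myh6: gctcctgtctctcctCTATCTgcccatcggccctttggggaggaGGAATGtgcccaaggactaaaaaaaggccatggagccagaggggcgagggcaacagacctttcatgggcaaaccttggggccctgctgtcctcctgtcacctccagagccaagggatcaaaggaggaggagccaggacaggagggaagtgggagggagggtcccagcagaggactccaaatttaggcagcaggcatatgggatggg
Myh7: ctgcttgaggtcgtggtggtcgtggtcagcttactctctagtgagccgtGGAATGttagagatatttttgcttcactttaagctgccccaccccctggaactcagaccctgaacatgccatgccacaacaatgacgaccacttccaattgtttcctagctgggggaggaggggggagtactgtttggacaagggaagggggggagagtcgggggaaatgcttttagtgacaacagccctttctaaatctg
Myl3: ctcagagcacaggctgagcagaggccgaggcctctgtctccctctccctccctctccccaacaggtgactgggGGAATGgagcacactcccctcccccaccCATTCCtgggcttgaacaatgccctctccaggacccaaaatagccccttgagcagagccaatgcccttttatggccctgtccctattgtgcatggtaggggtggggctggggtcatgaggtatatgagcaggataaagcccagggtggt
Myl7: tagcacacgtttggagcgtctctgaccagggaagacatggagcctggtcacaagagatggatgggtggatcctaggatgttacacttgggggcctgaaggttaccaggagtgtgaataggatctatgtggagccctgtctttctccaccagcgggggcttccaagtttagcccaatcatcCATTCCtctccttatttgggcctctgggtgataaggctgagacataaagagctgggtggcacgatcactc
RefSeq gave 13 such windows for the 10 genes, and 5 of them (38.5%) held CATTCC, as did 12.6% of all 32851 windows of that length. Those 5 belong to Myh6, Myh7, Myl3, Myl7 and Mylk3. AGATAA was in 3 windows, against 9.99% of all windows, and AGATAG in 3, against 7.71% of all. TATAAA was in 0, against 7.59% of all. The E-box letters CANNTG were in 10 windows and in 66.2% of all windows on either strand. Both light chain windows shown held the M-CAT letters, and a match of letters is a description only.

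One day after surgery, 8 of the 10 genes had fallen in the infarcted ventricle, and both atrial light chains had not passed the test (edgeR quasi-likelihood test, adjusted p under 0.05 over all genes tested). Among all 15508 genes tested, 19.7% fell and 19.3% rose at 1 day, and the median log2 fold change was −1.21 over the 10 genes and 0.12 over all genes. Without MI library A the count was 7 of 10, and without MI library B it was 10 of 10. Both MI libraries lay below both sham libraries for the 8 genes that fell, as they did for 32.6% of all genes tested.

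**Figure D1:**
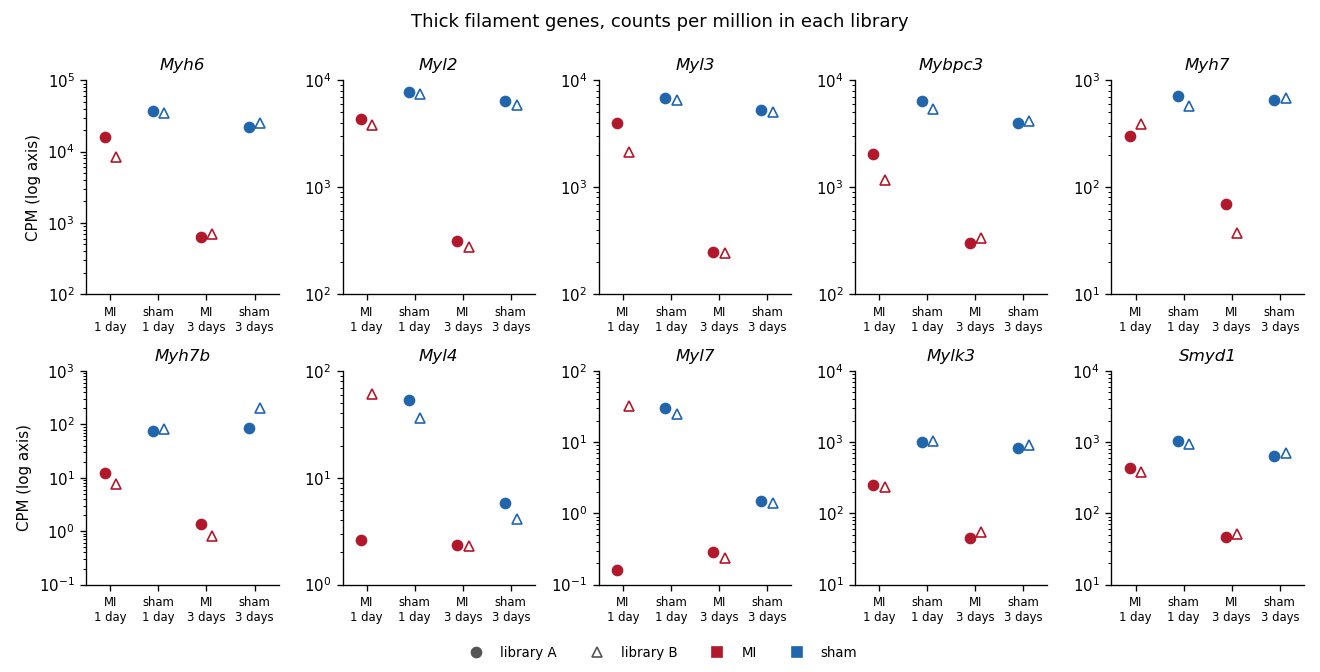
Level of each of the 10 genes in each library, in CPM on a log axis that differs between panels, with filled circles for library A and open triangles for library B. MI libraries lie below the sham libraries of the same day in every panel except Myl4 and Myl7 at 1 day, where MI library A is far below and MI library B above the sham libraries.

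The heavy and light chains of working ventricle fell together at 1 day. Myh6 (Ensembl ENSMUSG00000040752, chromosome 14, 54941921 to 54968017 in GRCm38.p6), the alpha heavy chain, had 16200 and 8290 CPM in MI hearts at 1 day, against 37227 and 34570 CPM in sham hearts. Library B of the MI hearts was lower than library A, and both were far under the sham hearts. The log2 fold change was −1.55 (SE 0.29, edgeR adjusted p = 0.00293). Myl2 (chromosome 5, 122092724 to 122113473), the ventricular regulatory light chain, had 4373 and 3850 CPM in MI hearts against 7835 and 7378 CPM in sham hearts, a log2 fold change of −0.89 (SE 0.17, edgeR adjusted p = 0.00358). Myl3 (chromosome 9, 110763678 to 110769802), the ventricular essential light chain, had 4006 and 2115 CPM in MI hearts against 6838 and 6578 CPM in sham hearts. Its log2 fold change was −1.13 (SE 0.26, edgeR adjusted p = 0.00877), and leaving out a sham library ended the call (adjusted p = 0.0733 without A and 0.059 without B). Of these chains of the ventricular motor, Myl2 kept 54.1% of its sham level by the fitted fold change, Myl3 45.6% and Myh6 34.1%. Without MI library A the log2 fold changes were −2.21 for Myh6, −1.76 for Myl3 and −1.08 for Myl2, and without MI library B they were −1.15, −0.74 and −0.80, so that Myl3 then kept more than Myl2.

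The genes that bind, switch or build the filament fell at 1 day too. Mybpc3 (chromosome 2, 91118114 to 91136516) encodes cardiac myosin-binding protein C, which lies along the filament and tunes how many heads reach actin. It had 2063 and 1172 CPM in MI hearts against 6408 and 5407 CPM in sham hearts, a log2 fold change of −1.87 (SE 0.26, edgeR adjusted p = 0.000748). Mylk3 (chromosome 8, 85324928 to 85386340) encodes the cardiac kinase that phosphorylates the regulatory light chain of Myl2. Its level was 247 and 237 CPM in MI hearts against 1022 and 1054 CPM in sham hearts, a log2 fold change of −2.10 (SE 0.17, edgeR adjusted p = 9.83e-05). The libraries of each group lay close together for this gene, and the gap between groups was many times their spread. Smyd1 (chromosome 6, 71213940 to 71262281) encodes a methyltransferase of heart and skeletal muscle that is needed to assemble sarcomeres. It had 428 and 378 CPM in MI hearts against 1025 and 932 CPM in sham hearts, a log2 fold change of −1.28 (SE 0.16, edgeR adjusted p = 0.00052).

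Of the slow heavy chains, Myh7b fell the furthest of the 10 genes at 1 day. Myh7b (chromosome 2, 155611243 to 155634307) encodes a slow heavy chain of low abundance in mammalian heart. It had 12.5 and 7.62 CPM in MI hearts against 74.5 and 80.7 CPM in sham hearts, a log2 fold change of −2.91 (SE 0.41, edgeR adjusted p = 0.000838). Myh7 (chromosome 14, 54970684 to 54994626), the beta heavy chain, had 299 and 391 CPM in MI hearts against 711 and 576 CPM in sham hearts in the gene count tables. Its log2 fold change was −0.90 (SE 0.27, edgeR adjusted p = 0.0274), a call that was lost without MI library A (adjusted p = 0.0711), sham library A (0.153) or sham library B (0.0591) and with scaling by library size alone (0.109). The transcript tables gave Myh7 the opposite sign at 1 day, a log2 fold change of 0.50 (edgeR adjusted p = 0.368).

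The atrial light chains split the MI libraries at 1 day. Myl4 (chromosome 11, 104546017 to 104587215), the atrial essential light chain, had 2.59 and 61.3 CPM in MI hearts against 53.3 and 36.2 CPM in sham hearts. Myl7 (chromosome 11, 5896637 to 5898782), the atrial regulatory light chain, had 0.162 CPM in MI library A (2 counts, 95% Poisson interval 0.0196 to 0.585 CPM) and 32.6 CPM in MI library B, against 30 and 24.5 CPM in sham hearts. MI library A was far below every sham library of that day for both genes, and MI library B was above them. The log2 fold changes were −0.56 (SE 0.83, edgeR adjusted p = 0.617) for Myl4 and −0.86 (SE 0.90, edgeR adjusted p = 0.47) for Myl7. Without MI library B they were −4.10 (adjusted p = 0.000282) and −7.34 (adjusted p = 0.000103), and without MI library A 0.36 (adjusted p = 0.269) and 0.16 (adjusted p = 0.561). Limma-voom, which weighs each count by its precision, gave Myl7 −4.00 (adjusted p = 0.036).

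By 3 days the same 8 genes had fallen, each further than at 1 day, and they kept between 0.749% and 7.89% of their sham level. Among all genes tested, 23.7% fell and 31.7% rose at 3 days, and the median log2 fold change was −3.95 over the 10 genes and 0.16 over all genes. The MI libraries lay below the sham libraries for all 10 genes, as they did for 35.1% of all genes tested. Without either MI library of 1 day, or with the 4 libraries of 3 days alone, 10 of 10 genes passed the test.

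Myh6 had 630 and 694 CPM in MI hearts at 3 days, against 22286 and 25227 CPM in sham hearts. That is a log2 fold change of −5.16 (SE 0.34, edgeR adjusted p = 2.87e-06), or 35.9-fold lower in MI hearts. The ventricular light chains fell by similar amounts. Myl2 had 314 and 277 CPM in MI hearts against 6416 and 5834 CPM in sham hearts, a log2 fold change of −4.37 (SE 0.20, edgeR adjusted p = 1.26e-06). Myl3 had 248 and 243 CPM in MI hearts against 5267 and 5021 CPM in sham hearts, a log2 fold change of −4.39 (SE 0.30, edgeR adjusted p = 3.56e-06). Each pair of replicates differed far less than the groups did.

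Mybpc3 had 300 and 335 CPM in MI hearts at 3 days, against 3976 and 4153 CPM in sham hearts, a log2 fold change of −3.68 (SE 0.28, edgeR adjusted p = 5.58e-06). Mylk3 had 45.3 and 54.1 CPM in MI hearts against 831 and 905 CPM in sham hearts, with −4.13 (SE 0.18, edgeR adjusted p = 1.26e-06) on the log2 scale. Smyd1 had 46.6 and 50.8 CPM in MI hearts against 634 and 700 CPM in sham hearts, with −3.77 (SE 0.18, edgeR adjusted p = 1.26e-06). MI libraries stood far below sham libraries for each of these genes.

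The slow chain Myh7b fell the furthest at 3 days as well. It had 1.35 and 0.816 CPM in MI hearts (33 and 24 counts) against 86.4 and 199 CPM in sham hearts. The fall was −7.06 on the log2 scale (SE 0.51, edgeR adjusted p = 4.52e-06), or 133-fold, and the sham libraries differed from each other by more than those of any other gene of the list on that day. Without sham library B of 3 days the value was −6.33, and without MI library A −7.65. Myh7 had 69.4 and 37.2 CPM in MI hearts against 660 and 689 CPM in sham hearts, a log2 fold change of −3.66 (SE 0.30, edgeR adjusted p = 8.77e-06), and −4.39 without MI library A. Of the 8 genes that fell at 3 days, Myh7 kept the most of its sham level, 7.89%, and Mybpc3, with 7.81%, was next to it within their SE, but the counting of Myh7 is uncertain, as given with the ratios of the isoforms.

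The atrial light chains were already low in sham hearts at 3 days. Myl4 had 2.33 and 2.28 CPM in MI hearts against 5.82 and 4.09 CPM in sham hearts, and Myl7 had 0.287 and 0.238 CPM in MI hearts (7 counts in each library) against 1.5 and 1.38 CPM in sham hearts (28 and 26 counts). MI libraries were below sham libraries for both genes. The fit over all 8 libraries gave −1.10 (SE 1.12, edgeR adjusted p = 0.432) for Myl4 and −2.44 (SE 2.09, edgeR adjusted p = 0.35) for Myl7, with a spread that the MI libraries of 1 day share. With the 4 libraries of 3 days alone the values were −1.33 (SE 0.31, edgeR adjusted p = 0.0113) and −2.67 (SE 0.51, edgeR adjusted p = 0.00503). The authors' deposited table of that day, whose fold change runs sham over MI, lists 1.25 (adjusted p = 0.0104) for Myl4 and 2.40 (adjusted p = 0.00478) for Myl7.

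**Figure D2:**
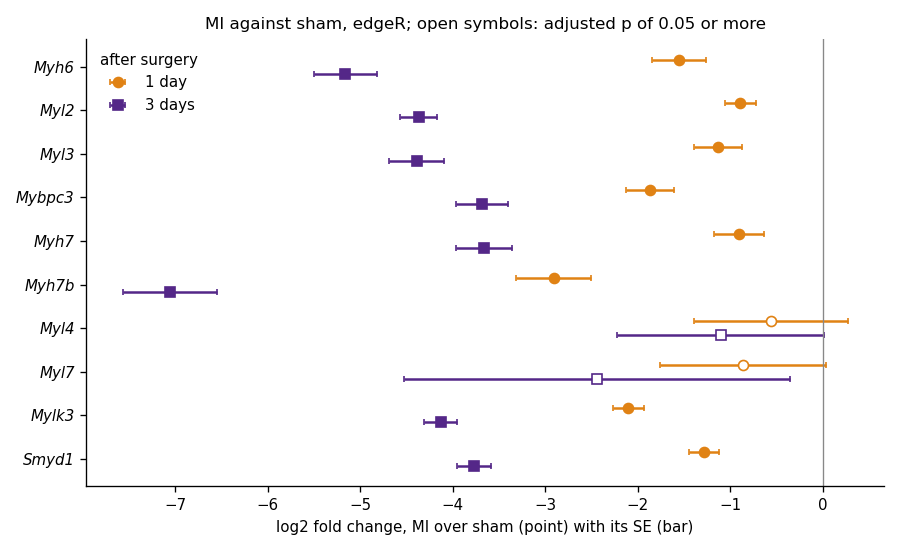
Log2 fold change of MI over sham for each gene, with its SE as a bar, at 1 day (circles) and 3 days (squares), from the edgeR fit of all 8 libraries. The 8 ventricular, slow and regulatory genes lie between −2.91 and −0.89 at 1 day and between −7.06 and −3.66 at 3 days, and the open symbols of Myl4 and Myl7 did not pass the test.

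The fall after MI was larger at 3 days than at 1 day for 8 of the 10 genes by the test of the difference itself (edgeR, adjusted p under 0.05), and of all genes tested 11.3% passed that test in the same direction and 13.2% in the other. The difference was largest for Myh7b, at −4.15 (SE 0.66, edgeR adjusted p = 0.00241), and smallest of those 8 for Mybpc3, at −1.81 (SE 0.36, edgeR adjusted p = 0.00637). Without sham library B of 3 days it was −3.36 for Myh7b, smaller in size than that of Myh6 in the same fit. The call of Mybpc3 was lost without sham library B of 1 day (adjusted p = 0.0743). For Myl4 and Myl7 the difference was −0.55 (adjusted p = 0.808) and −1.58 (adjusted p = 0.659) in the same edgeR fit. Without MI library A of 1 day it was −1.68 (adjusted p = 0.0147) and −2.82 (adjusted p = 0.00441), and without MI library B it was 3.00 (adjusted p = 0.00349) and 4.90 (adjusted p = 0.0076), so that 1 library decides its sign.

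Between the MI groups, 10 of 10 genes were lower at 3 days than at 1 day, as were 22% of all genes tested, while 23.4% were higher. Myh6 differed by −4.21 (SE 0.32, edgeR adjusted p = 1.34e-05) and Mylk3 by −2.28 (SE 0.17, edgeR adjusted p = 1.24e-05). Myl4 and Myl7 differed by −3.72 (SE 1.02, edgeR adjusted p = 0.0147) and −5.81 (SE 1.51, edgeR adjusted p = 0.0112). Without MI library B of 1 day, these became −0.17 (adjusted p = 0.792) and 0.66 (adjusted p = 0.665), and both calls were also lost without either MI library of 3 days and with limma-voom. Day and any difference in handling between the days cannot be told apart.

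Between the sham groups, 0 of 10 genes passed the test between 3 days and 1 day by edgeR, DESeq2 or limma-voom. Among all genes tested, edgeR called 0% in either direction. Without adjustment, the edgeR p was under 0.05 for Myh7b, Myl4, Myl7 and Smyd1. The share of all genes tested under that unadjusted limit was not determined, so no excess can be read from this. For the atrial light chains the values were far apart: Myl4 differed by −3.17 (SE 0.93, edgeR adjusted p = 0.631) and Myl7 by −4.24 (SE 1.13, edgeR adjusted p = 0.631). Without MI library A of 1 day they were −3.13 (adjusted p = 0.00745) and −4.19 (adjusted p = 0.00102), and without MI library B −3.17 (adjusted p = 0.0108) and −4.24 (adjusted p = 0.00185). In both of those fits the atrial light chains were the 2 genes called among all genes tested. Myh6 differed by −0.60 (SE 0.28, edgeR adjusted p = 0.631) and Myh7 by 0.07 (SE 0.27, edgeR adjusted p = 0.958).

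Of 10 atrial markers, Sln, Mybphl and, at lower levels, Nr2f1 followed the atrial light chains across the libraries of 1 day. This choice of genes was made after seeing the values. Dkk3 was also low in MI library A alone at 1 day, and most of the others did not follow. Sln, the sarcolipin that restrains the calcium pump in mouse atria, had 0 and 6.76 CPM in MI hearts against 6.08 and 3.85 CPM in sham hearts at 1 day. At 3 days it had 0.0819 and 0 CPM in MI hearts against 1.28 and 0.69 CPM in sham hearts. Mybphl, a myosin-binding protein found mainly in atria, had 0 and 3.44 CPM in MI hearts against 5.56 and 1.78 CPM in sham hearts at 1 day. Both Sln and Mybphl were at 0 in the MI library with the lowest Myl7 and were detected in the other 3 libraries of 1 day. Nr2f1 had 0.324 and 1.6 CPM in MI hearts against 0.926 and 0.861 CPM in sham hearts at 1 day. Dkk3 had 0.972 and 7.74 CPM in MI hearts against 7.99 and 9.53 CPM in sham hearts at 1 day. Kcna5, a potassium channel of atrial muscle, had 35.3 and 16.1 CPM in MI hearts against 56.7 and 43.9 CPM in sham hearts at 1 day, the reverse order within the MI hearts. Gja5, a connexin of atrial muscle, and Dkk3 were highest in MI hearts at 3 days, Gja5 with 16.5 and 15.6 CPM against 9.61 and 6.1 CPM in sham hearts and Dkk3 with 12.1 and 11.5 CPM against 4.54 and 3.4 CPM in sham hearts. The 9 atrial markers other than Nppa summed to 63.4 and 77.6 CPM in MI hearts against 162 and 144 CPM in sham hearts at 1 day, and to 61.2 and 52.9 CPM in MI hearts against 111 and 136 CPM in sham hearts at 3 days. In each sham library most of that sum came from the potassium channel genes Kcnj3 and Kcna5. Both were lower in the MI libraries than in the sham libraries of the same day. The lower sum in MI hearts therefore says little of the other markers. Over all genes tested, 19.7% fell and 19.3% rose at 1 day, and 23.7% fell and 31.7% rose at 3 days. Of the 9 atrial markers tested, 1 fell and 0 rose at 1 day, and 2 fell and 3 rose at 3 days. Without MI library B of 1 day, 4 fell at 1 day, without MI library A of 1 day 2 fell and 2 rose, and without either MI library or sham library B of 3 days 1 rose at 3 days. Kcnj3, a potassium channel subunit of atrial muscle, fell at both days, with 12.6 and 15.7 CPM in MI hearts against 72.3 and 64.9 CPM in sham hearts at 1 day and 2.01 and 1.39 CPM in MI hearts against 49.1 and 66.5 CPM in sham hearts at 3 days. Bmp10, which defines atrial muscle in the adult mouse, was at 0 in 5 of the 8 libraries and reached 1.97 CPM in MI library B of 1 day. Nppa, the natriuretic peptide of atria that stressed ventricle also makes, did not follow the light chains, with 371 and 579 CPM in MI hearts against 347 and 403 CPM in sham hearts at 1 day. At 3 days Nppa rose, with 495 and 514 CPM in MI hearts against 144 and 186 CPM in sham hearts, a log2 fold change of 1.61 (SE 0.23, edgeR adjusted p = 0.000285). MI library B of 1 day also held the fast skeletal heavy chains Myh1, Myh2 and Myh4 at 6.39, 6.63 and 6.39 CPM, against at most 0.574 CPM in any other library. The skeletal markers Tnnt3, Tnnc2, Actn3 and Pvalb were highest there too, at 2.46, 0.983, 3.19 and 0.737 CPM. The skeletal markers Mylpf, Tnni2 and Myl1 were not. Mylpf had 0.737 CPM there and 1.5 CPM in MI library B of 3 days, and Tnni2 had 2.46 and 3.84 CPM. Myl1 had 15.7 CPM there, below the sham libraries of that day at 25.2 and 28.2 CPM. What part atrial tissue or other muscle in a dissected sample had in these levels was not tested.

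**Figure D3:**
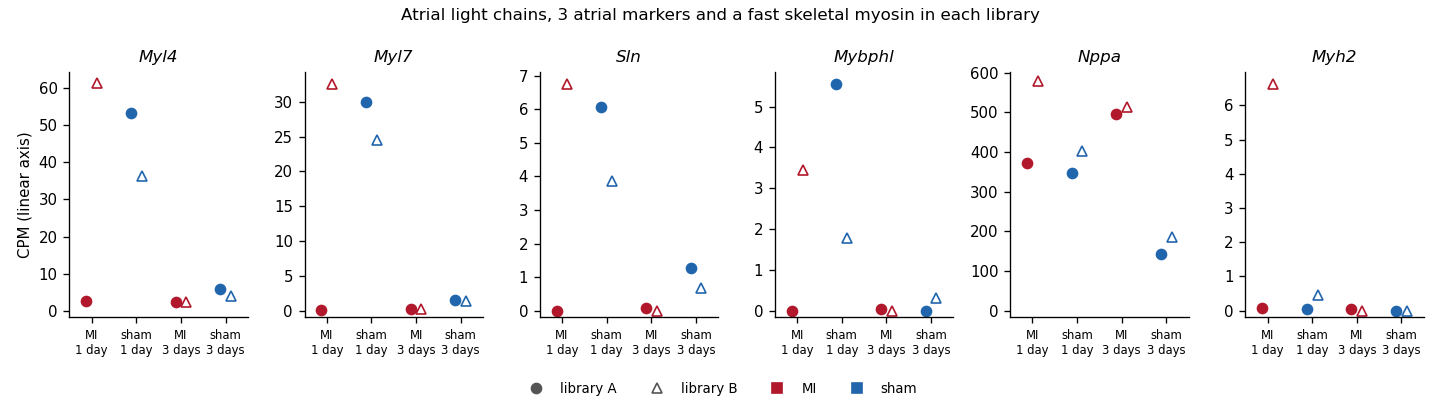
Levels of Myl4, Myl7, the atrial markers Sln, Mybphl and Nppa and the fast skeletal heavy chain Myh2 in each library, in CPM on linear axes. Myl4, Myl7 and Sln are near 0 in MI library A of 1 day and all 4 libraries of 3 days stand low, whereas Nppa is lowest in the sham libraries of 3 days and Myh2 is high in MI library B of 1 day alone.

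Ratios of counts of 2 genes within a library need no scaling, and 8 were compared between MI and sham by an exact permutation test over both days, with 36 arrangements and a smallest possible p of 0.0556, so that none could pass 0.05. Within a day, 2 against 2 libraries allow no p under 0.333, and the values are given as a description. In the gene counts, Myh7 stood at 18.4 and 47.1 counts per 1000 counts of Myh6 in MI hearts at 1 day, against 19.1 and 16.7 in sham hearts. At 3 days there were 110 and 53.6 in MI hearts against 29.6 and 27.3 in sham hearts. The ratio overlapped at 1 day and was above the sham libraries at 3 days, with a mean difference over both days of 1.08 on the log2 scale (2-sided exact permutation p = 0.111, adjusted over 8 ratios 0.296). The higher ratio at 3 days came with a lower level of both genes in MI hearts.

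The 2 deposited kinds of table did not agree for Myh7. In the transcript tables, reads of Myh7 transcripts amounted to 139 and 282 CPM (reads over the library sizes of the gene counts) in MI hearts against 130 and 168 CPM in sham hearts at 1 day. That is a log2 fold change of 0.50 (SE 0.41, edgeR adjusted p = 0.368), opposite in sign to the gene counts. At 3 days there were 50.3 and 23.8 CPM in MI hearts against 222 and 129 CPM in sham hearts, a log2 fold change of −2.24 (SE 0.43, edgeR adjusted p = 0.00133). The gene tables held 2.15 and 1.39 counts per transcript read of Myh7 in MI hearts against 5.46 and 3.44 in sham hearts at 1 day, and 1.38 and 1.57 in MI hearts against 2.97 and 5.36 in sham hearts at 3 days. For the 6 other genes with at least 50 transcript reads in every library, this number lay between 1.41 and 2.26 in all 8 libraries. Only in sham libraries did Myh7 exceed that range. Myh7b, which had fewer than 50 transcript reads in some MI libraries, also left the range. It had 2.48 and 2.82 in MI hearts against 2.44 and 2.41 in sham hearts at 1 day. At 3 days it had 1.83 and 1.85 in MI hearts against 2.37 and 2.76 in sham hearts. By transcript reads, Myh7 stood at 13.2 and 47.9 per 1000 reads of Myh6 in MI hearts against 5.29 and 6.99 in sham hearts at 1 day, and at 113 and 54.6 in MI hearts against 14.4 and 8.14 in sham hearts at 3 days. By these reads the ratio was above the sham libraries at both days, with a mean difference of 2.45 on the log2 scale (2-sided exact permutation p = 0.0556, the smallest possible, adjusted over 8 ratios 0.148). Myh6 and Myh7 are near-identical neighbours, and Mhrt, a long non-coding RNA read antisense to Myh7, is listed in the transcript tables alone. Mhrt had 3.24 and 1.35 CPM in MI hearts against 16 and 14.6 CPM in sham hearts at 1 day, and 0.573 and 0.476 CPM in MI hearts against 10.4 and 24.3 CPM in sham hearts at 3 days. Whether reads of the paralogue or of the antisense RNA are among the counts of Myh7 was not tested, and its level is uncertain for that reason.

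**Figure D4:**
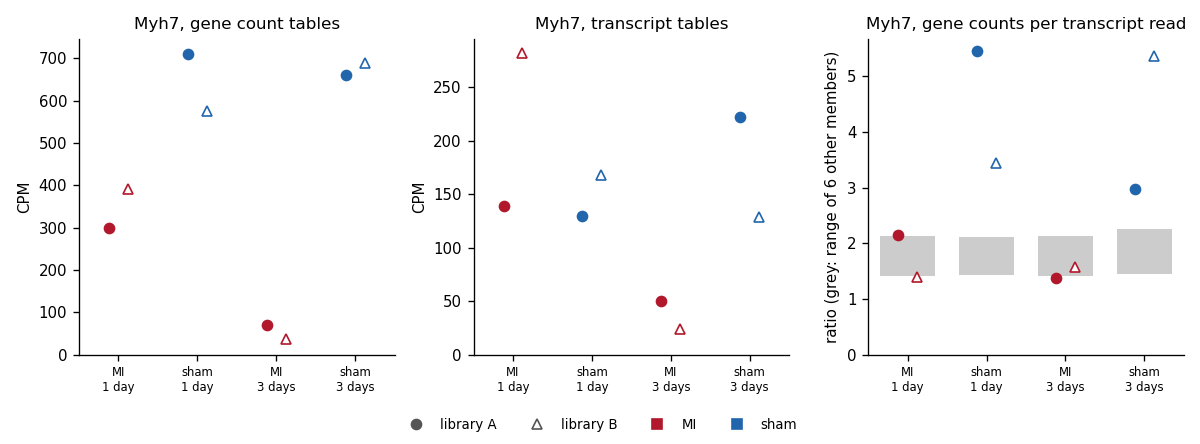
Myh7 in each library as CPM of the gene count tables (left), as CPM of the transcript tables (middle) and as gene counts per transcript read (right). Grey bands span the 6 other members with at least 50 transcript reads in every library, so Myh7b is not among them. Sham libraries lie above the grey band, at 2.97 to 5.46 counts per transcript read, while MI libraries lie at 1.38 to 2.15.

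Myh7b fell further than Myh7. It stood at 41.8 and 19.5 counts per 1000 counts of Myh7 in MI hearts against 105 and 140 in sham hearts at 1 day, and at 19.5 and 21.9 in MI hearts against 131 and 289 in sham hearts at 3 days. MI libraries were below sham libraries at both days (mean log2 difference −2.66, 2-sided exact permutation p = 0.0556, the smallest possible, adjusted 0.222). Myl7 over Myl4 was below sham at both days too, with 62.5 and 531 per 1000 in MI hearts against 562 and 678 in sham hearts at 1 day, and 123 and 104 in MI hearts against 257 and 338 in sham hearts at 3 days (exact permutation p = 0.0556, adjusted 0.222). This ratio rests on low counts, with 2 of Myl7 and 32 of Myl4 in MI library A of 1 day. The MI libraries of 3 days had 7 counts of Myl7 each. MI library B of 1 day lay close to sham library A of that day.

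Atrial against ventricular light chains had no common direction at 1 day. Myl4 stood at 0.647 and 29 per 1000 counts of Myl3 in MI hearts against 7.8 and 5.5 in sham hearts at 1 day. At 3 days there were 9.42 and 9.39 in MI hearts against 1.11 and 0.814 in sham hearts, and MI libraries were above sham libraries. Myl7 stood at 0.0371 and 8.45 per 1000 counts of Myl2 in MI hearts against 3.83 and 3.32 in sham hearts at 1 day. At 3 days there were 0.913 and 0.859 in MI hearts against 0.233 and 0.236 in sham hearts. By these counts atrial light chains made up a larger share in both MI libraries than in both sham libraries of 3 days. Over both days the exact permutation p was 0.5 for Myl4 over Myl3 and 1 for Myl7 over Myl2 (adjusted 0.571 and 1).

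Against Myh6, both Mybpc3 and Smyd1 stood higher in MI hearts at 3 days. Mybpc3 had 476 and 482 counts per 1000 of Myh6 in MI hearts against 178 and 165 in sham hearts, and Smyd1 had 74 and 73.2 in MI hearts against 28.4 and 27.8 in sham hearts. At 1 day Mybpc3 had 127 and 141 in MI hearts against 172 and 156 in sham hearts, below and not above. The kinase showed another course. Mylk3 had 56.4 and 61.6 counts per 1000 of its substrate Myl2 in MI hearts against 130 and 143 in sham hearts at 1 day, but 144 and 195 in MI hearts against 130 and 155 in sham hearts at 3 days. The kinase thus stood lower against its substrate at 1 day, and at 3 days the groups overlapped. Over both days the exact permutation p was 0.333 for Mybpc3, 0.167 for Smyd1 and 0.278 for Mylk3 (adjusted 0.444, 0.333 and 0.444).

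**Figure D5:**
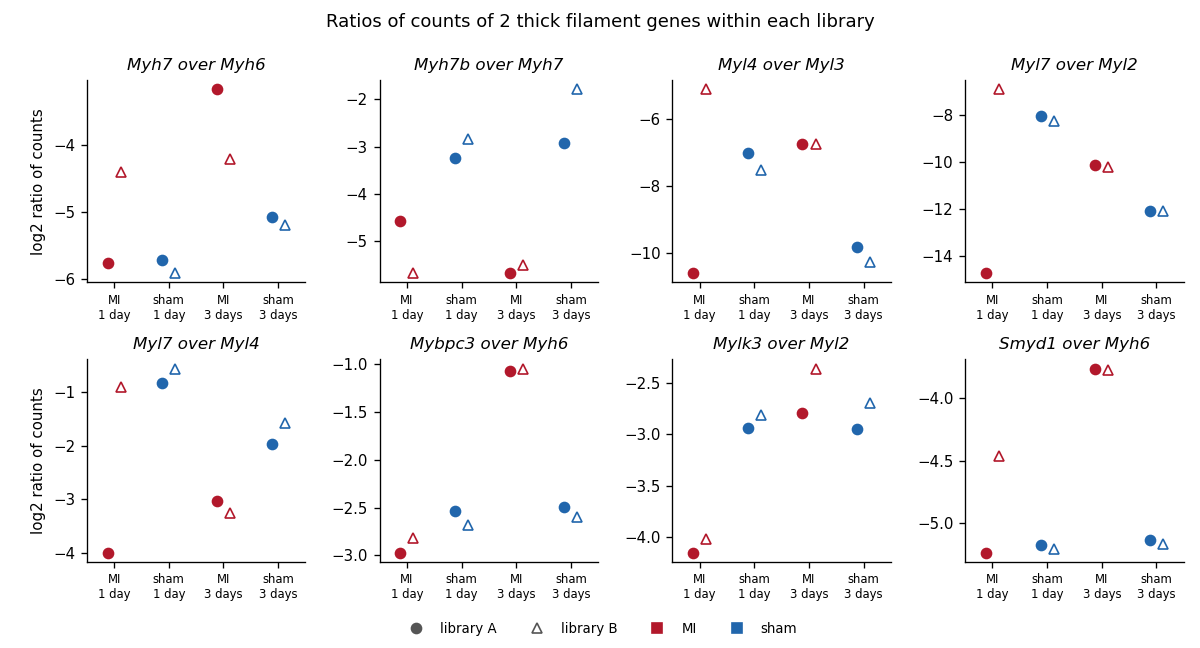
Log2 ratio of the counts of 2 genes within each library, for the 8 pairs compared, with libraries A and B as circles and triangles. Mybpc3 and Smyd1 against Myh6 stand higher in MI than in sham libraries at 3 days, and Mylk3 against Myl2 stands lower in MI libraries at 1 day.

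Relative to other cardiomyocyte transcripts, the heavy chains Myh6 and Myh7b and the light chain Myl2 were lower in both MI libraries than in both sham libraries of each day. Myh6 had 169 and 74.6 counts per 1000 counts of the 10 reference genes in MI hearts against 219 and 234 in sham hearts at 1 day, and 65.5 and 72.4 in MI hearts against 209 and 151 in sham hearts at 3 days. The mean log2 difference over both days was −1.19 (2-sided exact permutation p = 0.0556, the smallest possible, adjusted over the 10 genes 0.185). For Myh7b it was −2.77 and for Myl2 −0.43, with the same p. Myl2 had 45.6 and 34.7 in MI hearts against 46.1 and 49.9 in sham hearts at 1 day, and 32.7 and 28.9 in MI hearts against 60.3 and 35 in sham hearts at 3 days. Mybpc3, Mylk3 and Smyd1 were below sham at 1 day by this measure and overlapped with sham at 3 days. Titin gave most of the reference counts, with 48072 and 105032 CPM in the sham libraries of 3 days, so the 9 genes without it were also used, a choice made after seeing the values. Per 1000 counts of those 9 genes, Myh6 had 403 and 249 in MI hearts against 460 and 449 in sham hearts at 1 day, and 124 and 128 in MI hearts against 382 and 408 in sham hearts at 3 days. Smyd1 stood slightly lower by the same measure, with 10.6 and 11.4 in MI hearts against 12.7 and 12.1 in sham hearts at 1 day, and 9.2 and 9.37 in MI hearts against 10.9 and 11.3 in sham hearts at 3 days. Mylk3 had 6.13 and 7.13 in MI hearts against 12.6 and 13.7 in sham hearts at 1 day, and 8.93 and 9.97 in MI hearts against 14.3 and 14.6 in sham hearts at 3 days. Myl2 turned with the choice of genes: against the 9 it stood above sham at 1 day, with 109 and 116 in MI hearts against 96.7 and 95.8 in sham hearts, and below at 3 days, with 61.9 and 51 in MI hearts against 110 and 94.4 in sham hearts. MI libraries lay below sham libraries at both days for Myh6, Myh7b, Mybpc3, Mylk3 and Smyd1 against the 9 genes. Myh7 had 7.43 and 11.8 in MI hearts against 8.78 and 7.48 in sham hearts at 1 day, and 13.7 and 6.85 in MI hearts against 11.3 and 11.2 in sham hearts at 3 days, and the groups overlapped at both days.

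Levels were compared between genes per kilobase of the longest listed transcript, in CPM per kb, as mean ± SD of 2 libraries. In MI hearts at 3 days Myl2 was highest, at 332 ± 29.3, followed by Myl3 at 218 ± 3.15, Myh6 at 109 ± 7.55 and Mybpc3 at 76.2 ± 5.86. In sham hearts of that day Myl2 had 6890 ± 463, Myl3 4573 ± 155, Myh6 3925 ± 344 and Mybpc3 976 ± 30.1. Smyd1 and Mylk3 followed in both. They had 14.5 ± 0.883 and 13.4 ± 1.69 in MI hearts, where their libraries overlapped. In sham hearts they had 198 ± 14 and 235 ± 14.1, with both libraries of Mylk3 above both of Smyd1. Myh7 had 8.56 ± 3.65 in MI hearts and 108 ± 3.35 in sham hearts. The lowest were Myl4, Myl7 and Myh7b, at 0.705 ± 0.012, 0.445 ± 0.0582 and 0.176 ± 0.0614 in MI hearts, and at 1.51 ± 0.375, 2.44 ± 0.139 and 23.2 ± 13 in sham hearts. The longest transcript of Myl3, of 1125 bases, held 0.628% of its reads, and with the one of 937 bases, which held 98.9%, Myl3 had 262 ± 3.78 in MI hearts and 5490 ± 186 in sham hearts. The longest transcript of Myl4, of 3273 bases, is not the one with the most reads, of 900 bases. With the shorter one Myl4 had 2.56 ± 0.0437 in MI hearts and 5.5 ± 1.36 in sham hearts, above Myl7 in both. Myh6 made up 38% and 41% of the summed CPM of the 10 genes in MI hearts at 3 days against 55.5% and 59% in sham hearts, and 58.6% and 50.1% in MI hearts at 1 day against 60.8% and 61% in sham hearts.

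Genes with the most similar course were sought among the 10838 genes that averaged 5 CPM or more, by the distance between their centred log2 CPM over the 8 libraries. Nearest to Myh6 were Pygm, the glycogen phosphorylase of muscle (distance 0.26), Ckm, the muscle creatine kinase (0.44), and Slc25a34 (0.51), where the median distance of all genes was 6.62. Nearest to Myh7 were Slco5a1 (0.70), Vldlr (0.71) and Prkaa2 (0.71), with a median of 4.62. For the atrial light chains the nearest genes were further off among the genes compared. Sln and Mybphl averaged under 5 CPM and so were not among them. Nearest to Myl4 were Celsr1 (3.30), Atp8a2 (3.47) and Cacna1g (3.52), with a median of 5.80, and nearest to Myl7 were Ano5 (5.21), Aqp4 (5.25) and Cacna1g (5.51), with a median of 8.69. All these points share the same libraries and are a description.

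Of 19 other genes of the thick filament and of the M-band, which ties thick filaments together at mid-sarcomere, 13 were tested; 7 fell and 0 rose at 1 day, and 9 fell and 2 rose at 3 days. Their median log2 fold change was −0.74 at 1 day and −2.71 at 3 days, against 0.12 and 0.16 over all genes. Over all genes tested, 19.7% fell and 19.3% rose at 1 day, and 23.7% fell and 31.7% rose at 3 days. Obsl1, a cytoskeletal protein of the M-band, fell at 1 day by 2.12 on the log2 scale (edgeR adjusted p = 0.000518). Mylk4, a kinase of the light chain kinase family, had 1.47 and 1.02 CPM in MI hearts against 85.7 and 105 CPM in sham hearts at 3 days, a log2 fold change of −6.27 (SE 0.36, edgeR adjusted p = 1.78e-06). Ttn, the ruler on which thick filaments are laid, fell at 3 days, with 4543 and 4165 CPM in MI hearts against 48072 and 105032 CPM in sham hearts. The 2 that rose at 3 days were the skeletal light chain Mylpf, with 1.02 and 1.5 CPM in MI hearts against 0.641 and 0.159 CPM in sham hearts, and the skeletal kinase Mylk2. Both were near the limit of detection, and DESeq2 and limma-voom called 0 of them. Without MI library A of 1 day, 7 genes of the list rose at 1 day, and with scaling by library size alone 4 fell and 1 rose.

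Of 14 genes for myosin folding, turnover and light chain dephosphorylation, all tested, 9 fell and 2 rose at 1 day, and 11 fell and 1 rose at 3 days, with medians of −0.75 and −2.46. The shares of all genes tested that fell and rose were 19.7% and 19.3% at 1 day and 23.7% and 31.7% at 3 days. Unc45b, the chaperone that folds muscle myosin heads, had 171 and 117 CPM in MI hearts against 593 and 486 CPM in sham hearts at 1 day, and 19.2 and 24.6 CPM in MI hearts against 303 and 351 CPM in sham hearts at 3 days. Its log2 fold changes were −1.90 (SE 0.23, edgeR adjusted p = 0.000408) and −3.90 (SE 0.25, edgeR adjusted p = 2.68e-06). Ppp1r12b, the targeting subunit of the phosphatase that opposes Mylk3, fell at 1 day, with 89.9 and 72.8 CPM in MI hearts against 241 and 190 CPM in sham hearts. Trim54, a ubiquitin ligase of muscle, had 7.37 and 8.7 CPM in MI hearts against 159 and 162 CPM in sham hearts at 3 days. The chaperone Hsp90aa1 rose at both days, whereas Hsp90ab1 fell at both. Without sham library A of 1 day, 4 genes of the list fell and 0 rose at 1 day.

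Of 12 genes of smooth and non-muscle myosin, 1 fell and 4 rose at 1 day, and 3 fell and 5 rose at 3 days. Their medians were 0.27 and 0.16, against 0.12 and 0.16 over all genes. Over all genes tested, 19.7% fell and 19.3% rose at 1 day, and 23.7% fell and 31.7% rose at 3 days. With 12 genes, no excess is read from these counts. Myh9, the heavy chain of non-muscle myosin in most cell types, rose at both days and had 832 and 525 CPM in MI hearts against 253 and 239 CPM in sham hearts at 1 day. The non-muscle light chain Myl6 had 265 and 195 CPM in MI hearts against 45.3 and 40.6 CPM in sham hearts at 3 days, a log2 fold change of 2.42 (SE 0.22, edgeR adjusted p = 1.75e-05). Myh14 fell at both days, with 2.91 and 3.06 CPM in MI hearts against 82.4 and 76.7 CPM in sham hearts at 3 days. Myh9 had 861 and 832 CPM in MI hearts against 214 and 188 CPM in sham hearts at 3 days. With scaling by library size alone 1 gene fell at 3 days, without MI library B of 1 day 3 fell at 1 day, and without sham library A of 1 day 2 rose at 1 day.

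Of 23 regulators of myosin genes, 10 fell and 3 rose at 1 day, and 18 fell and 2 rose at 3 days, with medians of −0.60 and −1.53. The shares of all genes tested that fell and rose were 19.7% and 19.3% at 1 day and 23.7% and 31.7% at 3 days. Thra, the thyroid hormone receptor through which the hormone raises Myh6 and lowers Myh7 in rodents, had 22.4 and 19.9 CPM in MI hearts against 80.9 and 72.9 CPM in sham hearts at 1 day. That is a log2 fold change of −1.85 (SE 0.18, edgeR adjusted p = 0.000182). Dio2, the enzyme that makes active thyroid hormone in the cell, rose, with 16 and 20.8 CPM in MI hearts against 3.24 and 4.59 CPM in sham hearts (log2 fold change 2.21, SE 0.35, edgeR adjusted p = 0.00133). Dio3 of the same list also rose at 1 day and at 3 days, and Thrb fell at both days. Hormone levels were not measured. Irx4, which favours ventricular over atrial genes, had 1.19 and 1.36 CPM in MI hearts against 22.3 and 19.9 CPM in sham hearts at 3 days. Tbx5, a factor of cardiac muscle, had 0.983 and 0.442 CPM in MI hearts against 15.3 and 14.7 CPM in sham hearts at 3 days. Both fell, with log2 fold changes of −4.04 (SE 0.30) and −4.42 (SE 0.43) and edgeR adjusted p-values of 5.41e-06 and 2.43e-05. Without sham library B of 1 day, 6 genes of the list fell at 1 day, and with any 1 library left out 1 to 2 rose at 1 day.

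Markers of the heart's other cells moved in the same libraries as the thick filament genes. The shares of all genes tested that fell and rose were 19.7% and 19.3% at 1 day and 23.7% and 31.7% at 3 days. Of 4 ventricular markers 3 fell at 1 day and 4 at 3 days, with Fhl2 at 697 and 647 CPM in MI hearts against 3019 and 2716 CPM in sham hearts at 1 day. Of 6 neutrophil markers 6 rose at 1 day and 5 at 3 days, and Cxcr2, a chemokine receptor of neutrophils, had 145 and 99.4 CPM in MI hearts against 6.08 and 5.4 CPM in sham hearts at 1 day. Of 6 macrophage markers 3 rose at 1 day and 6 at 3 days, and Ccr2, a receptor of recruited monocytes, had 648 and 489 CPM in MI hearts against 37.7 and 16.6 CPM in sham hearts at 3 days. Of 6 fibroblast markers 2 fell at 1 day and 4 rose at 3 days, and Col1a1, a fibrillar collagen, had 1200 and 1391 CPM in MI hearts against 156 and 95.2 CPM in sham hearts at 3 days. Of 6 endothelial markers 3 rose and 1 fell at 1 day, and 3 rose and 2 fell at 3 days. Of 5 smooth muscle markers 1 fell at 1 day, and 3 rose and 2 fell at 3 days. Of 10 skeletal muscle markers 4 were tested, of which 1 fell at 1 day, and 2 rose and 1 fell at 3 days. All 10 cardiomyocyte reference genes fell at 3 days and 9 at 1 day, with medians of −3.73 and −0.85. Without sham library A or B of 1 day, 4 of these 10 fell at 1 day, and with scaling by library size alone 5. The marker counts moved too with 1 library left out. At 1 day, 1 to 3 macrophage and 1 to 3 endothelial markers rose, the lowest without sham library B, and 0 to 2 endothelial markers fell. At 3 days, 3 to 5 neutrophil, 2 to 5 fibroblast and 0 to 3 endothelial markers rose, each lowest without MI library A (neutrophil markers also without sham library B), and 1 to 3 endothelial markers fell. Of the smooth muscle markers 0 to 2 fell at either day. Of the skeletal markers 0 to 5 rose at 1 day, the highest without MI library A, and 0 to 3 rose at 3 days, the lowest without MI library B. The part of these cells in the values of the thick filament genes was not tested.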

How the data were processed

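Left ventricular RNA of 8 mice was compared: MI with sham at 1 day and at 3 days, the difference of these effects, and 3 days with 1 day within each surgery. The submitters' processing notes name mm10, TopHat2 2.0.14 and Bowtie2 2.2.5, HTSeq, SAMtools 0.1.2, DESeq2 and FastQC, without saying what each did. Strand setting and annotation: not given in the sources used here. The deposited count tables, 1 per day, hold raw read counts per gene symbol, per the file headers. The authors' deposited DESeq2 tables give a log2 fold change and adjusted p-values, whose sign, checked on the counts, is MI over sham for day 1 but the reverse for day 3. The deposited transcript tables give read counts and a length per transcript, and their transcripts were summed to genes. Another 40 columns of per-sample values were not used. Columns name the group and a sample number, but not the replicate number of the sample titles. Libraries were called A and B by column order in both kinds of table. The match of the letters was then checked by the deviations from the group mean across genes. Both sham columns of the 1-day count table carry the same header name, and they held 20676514 and 20120257 counts.

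Counts were fitted by group in edgeR 4.0.16 (R 4.3.3) with filterByExpr, TMM and a robust quasi-likelihood fit of all 8 libraries (4 residual degrees of freedom, common dispersion 0.0602), which tests 15508 genes, with Benjamini-Hochberg adjustment over them. SEs are the log2 fold change over the root of F. The fit was tested on simulated data. CPM are computed here from the counts. Intervals cover counting error only (Poisson, or Clopper-Pearson for shares, 95%). Ratios were tested by exact permutation within days. The members and all gene lists were chosen with earlier results of these data known. Besides the members, the text draws on genes chosen by rule. In each list and day these were the 2 called genes of largest change among those with a mean of at least 5 CPM. The 3 genes nearest in course to Myh6, Myh7, Myl4 and Myl7 were also used. Not every gene so chosen is reported here. Mylpf, Mylk2, Hsp90aa1, Hsp90ab1, Dio3, Thrb, Mhrt, the hairpin genes and single atrial and skeletal markers were added after their values were seen. DESeq2 1.42.0, limma 3.58.1 (voom), other scalings, no filter, the transcript tables and leaving out each library were alternatives.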

Additional observations from a re-analysis of the deposited data

Results flagged for a closer look

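The effect of MI differed between the days for 8 of the 10 genes, by the test of the difference itself (edgeR, adjusted over all genes tested). The effect at 3 days minus that at 1 day, on the log2 scale, was −3.61 for Myh6, −3.49 for Myl2, −3.26 for Myl3, −1.81 for Mybpc3, −2.76 for Myh7, −4.15 for Myh7b, −2.02 for Mylk3 and −2.49 for Smyd1. Each of these is a deeper fall at 3 days, in a design in which each day has its own sham mice.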

How the results depend on the processing

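No paired analysis was possible because the columns of the tables carry none of the replicate numbers of the sample titles. Over the alternatives that kept all 8 libraries, the count of the 10 genes that fell was 7 to 9 at 1 day and 8 at 3 days; with 1 library left out it was 6 to 10 at 1 day and 8 to 10 at 3 days. Between the sham groups, 0 to 2 genes were called with 1 library left out, and the 2 were Myl4 and Myl7 without either MI library of 1 day. Scaling by library size alone moved the median log2 fold change of all genes to 0.39 at 1 day and 0.43 at 3 days, against 0.12 and 0.16, and DESeq2's size factors moved it to 0.03 at 3 days. Myh7 at 1 day depended on the counting, with 0.50 in the transcript tables against −0.90, and Myl7 at 1 day on the test, with −4.00 by limma-voom against −0.86. Limma-voom turned the difference of the effects between days to 1.08 for Myl4 and 1.60 for Myl7 (adjusted p = 0.667 and 0.69). Relative to the cardiomyocyte genes, Myh7 turned from −0.11 to 1.26 by the transcript tables and to 0.07 against Actn2 and Ryr2 alone, and with 1 library left out it lay between −0.34 and 0.11. With 1 library left out, that measure was −0.32 to 1.85 for Myl4 and −2.66 to 1.06 for Myl7. The ratio of Myl4 to Myl3 was then −0.01 to 2.73 and that of Myl7 to Myl2 −2.34 to 1.58 on the log2 scale. With 1 library left out, log2 fold changes at 1 day ranged from −4.10 to 0.36 for Myl4 and from −7.34 to 0.16 for Myl7, their difference between days from −1.68 to 3.00 and from −2.82 to 4.90, and Myl7 between the MI groups from −7.01 to 0.66. Myh7 between the sham groups lay between −0.07 and 0.25. The cause of these changes was not tested. Depth limits Myl7, with 2 to 28 counts in 5 libraries.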

Other observations

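Several transcripts of the heavy chain loci and of titin stood higher in library B than in library A of the sham hearts at 3 days, a pattern noticed after the values were seen. Ttn had 105032 against 48072 CPM, Myh7b 199 against 86.4 CPM, Mhrt 24.3 against 10.4 CPM in the transcript tables, and Mir208b 246 against 56 counts. In the same 2 libraries Myh6 had 25227 against 22286 CPM and Myl2 5834 against 6416 CPM, so the abundant members did not share the difference. These are values of 1 mouse each, and no test was made.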
